A study of Mus musculus with 16 samples.

Results

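Genes of the cell cycle and of DNA replication were compared between kidney and liver of the mouse. Members were chosen by name alone: probes with 1 gene symbol whose symbol begins as the cyclins A to H, the cyclin-dependent kinases and their partners (Cdk), numbered Cdc and Mcm genes, type II topoisomerases, DNA polymerases alpha, delta and epsilon, replication factor C, Aurora kinases, Bub genes and centromere proteins do, together with Pcna, Mki67 and Plk1. This gave 104 members, carried by 127 probes, among 9648 genes with a probe. Of these, 97 had values in at least 2 mice on both kinds of arrays and were tested, among 9033 genes tested. Not tested were Cdc42ep5, Cdk11b, Cdk3, Cdkn2a, Mcm3ap, Pole4 and Rfc1, and Mcm3ap had no value on any array. A name is not a function. The Cdc42 effectors and kinases, the polymerase-interacting proteins Poldip2 and Poldip3 and the Cdk5 partners came in by their prefix. A role in the cell cycle was not asked of them, and Ccnb2-ps is a pseudogene.

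The animals were untreated male wildtype mice of the inbred strain C3HeB/FeJ, 105 ± 5 days old and kept free of specified pathogens. In 7 two-colour cDNA arrays, here called kidney arrays, left kidneys of mouse 1 (3 arrays), mouse 2 (3 arrays) and mouse 3 (1 array) were each hybridised together with RNA pooled from 5 livers. The 9 liver arrays paired the dorsal liver lobe of each of these 3 mice (3 arrays each) with RNA pooled from 5 kidneys. For each single sample 20 µg of total RNA was labelled, and the pools give no estimate of spread. Each array measures a ratio between both organs, so every value below is a log2 ratio of kidney over liver, positive where RNA was more abundant in kidney. Arrays that repeat a mouse and organ were averaged, which left 6 averages per gene: mice 1, 2 and 3 on the kidney arrays and mice 1, 2 and 3 on the liver arrays.

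Cyclins bind and activate cyclin-dependent kinases, and the pairs change as a cell passes from G1 through DNA synthesis to mitosis. D-type cyclins with Cdk4 or Cdk6 and E-type cyclins with Cdk2 act before and at the start of DNA synthesis, the MCM helicase and the replicative polymerases copy DNA, and A- and B-type cyclins with Cdk1 drive mitosis. Most hepatocytes and tubule cells of an adult mouse are out of the cycle, and RNAs such as Mki67, Top2a, Ccna2 and Cdk1 are made mainly by cycling cells, whereas many other members are expressed in resting cells too.

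Promoters of 5 members are shown because the results below set such genes side by side: Cdk2 and Cdk4, which had the lowest ratio of kidney over liver among the members and the lowest adjusted p after it, Ccng1, which was higher in kidney, and Cdk1 and Mki67, which are read as signs of cycling cells. They were chosen after the values were seen. Each runs 5′ to 3′ from 250 bases before the transcription start to 50 bases from it, as given by RefSeq on GRCm38.p6, at chr10:128705002-128705301 (minus strand) for Cdk2, chr10:127063285-127063584 (plus strand) for Cdk4, chr11:40755237-40755536 (minus strand) for Ccng1, chr10:69352863-69353162 (minus strand) for Cdk1 and chr7:135716330-135716629 (minus strand) for Mki67. Capitals mark matches, on either strand, to TTTGAA (the core of the cell cycle genes homology region, CHR), to CCAAT, and to 4 spellings of an E2F element (TTTGGCGC, TTTGCCGC, TTTCGCGC and TTTCCCGC).
Cdk2: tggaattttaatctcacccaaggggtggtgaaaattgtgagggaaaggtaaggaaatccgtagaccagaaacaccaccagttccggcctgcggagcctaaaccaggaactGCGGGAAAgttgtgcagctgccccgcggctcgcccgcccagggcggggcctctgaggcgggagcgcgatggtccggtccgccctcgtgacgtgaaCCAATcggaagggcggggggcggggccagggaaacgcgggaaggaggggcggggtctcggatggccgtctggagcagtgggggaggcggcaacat
Cdk4: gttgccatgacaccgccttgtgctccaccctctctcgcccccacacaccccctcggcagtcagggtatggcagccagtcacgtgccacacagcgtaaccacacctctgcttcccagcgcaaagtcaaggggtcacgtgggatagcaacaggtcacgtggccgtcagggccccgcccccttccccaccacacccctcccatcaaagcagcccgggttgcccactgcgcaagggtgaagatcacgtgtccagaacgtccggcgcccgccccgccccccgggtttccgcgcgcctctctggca
Ccng1: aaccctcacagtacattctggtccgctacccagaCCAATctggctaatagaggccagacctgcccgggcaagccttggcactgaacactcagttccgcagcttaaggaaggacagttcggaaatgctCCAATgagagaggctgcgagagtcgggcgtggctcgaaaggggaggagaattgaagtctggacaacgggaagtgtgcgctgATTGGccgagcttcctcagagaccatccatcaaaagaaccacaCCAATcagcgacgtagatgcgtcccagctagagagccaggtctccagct
Cdk1: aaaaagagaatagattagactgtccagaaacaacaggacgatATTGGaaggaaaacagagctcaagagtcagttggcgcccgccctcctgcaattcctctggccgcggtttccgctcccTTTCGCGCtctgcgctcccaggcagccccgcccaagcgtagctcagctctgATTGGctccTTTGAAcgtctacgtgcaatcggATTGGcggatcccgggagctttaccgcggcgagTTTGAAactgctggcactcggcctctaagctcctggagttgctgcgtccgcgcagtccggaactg
Mki67: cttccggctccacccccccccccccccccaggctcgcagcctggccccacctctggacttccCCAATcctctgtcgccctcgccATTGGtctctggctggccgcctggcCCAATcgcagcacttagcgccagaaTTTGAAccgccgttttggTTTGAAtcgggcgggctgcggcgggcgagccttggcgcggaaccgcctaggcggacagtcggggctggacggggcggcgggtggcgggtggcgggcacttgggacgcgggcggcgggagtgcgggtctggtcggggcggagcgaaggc
The Mki67 window holds TTTGAA starting at -116 and -98 from the start site, and the Cdk1 window at -71 and -15. The Cdk2 window holds an E2F spelling at -140 and CCAAT at -45, the Ccng1 window CCAAT in 4 places, and the Cdk4 window none of these letters. Of the 104 members, 88 had a promoter in the table. TTTGAA was found in 25.0% of these, against 20.2% of 27025 genes with a promoter of the same length, CCAAT in 56.8% against 41.1%, and an E2F spelling in 18.2% against 2.6%. TTTGAA and CCAAT stood together in 19.3% of the members and in 7.97% of all genes. For the 11 proliferation genes listed below that were tested and had a promoter, these shares were 54.5% for TTTGAA, 11 of 11 for CCAAT and 45.5% for E2F. A match is a description of the letters and not a site shown to be used.

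Between 15480 and 19432 of 20419 probes had a value on an array, and the number of arrays limits the precision. The labels do not say which channel is on top of the ratio. It was read from markers: as deposited, all 11 hepatocyte genes were positive on the kidney arrays (median 6.77) and none on liver arrays (median -6.39), and 8 proximal tubule genes had a median of -4.87 on the first kind and 5.02 on the second. Values were turned accordingly, and these lists are therefore no independent check of direction. Array medians lay within 0.00267 of 0 in mice 1 and 3, but between -1.49 and -1.19 (kidney over liver) on the 6 arrays of mouse 2, although the labels describe a median ratio of 1. The hepatocyte and tubule genes still lay far to either side, with 10 of 11 called higher in liver (median -6.58) and 8 of 8 called higher in kidney (median 5.04). Of the other cell types, 3 of 7 macrophage genes were called higher in liver (Clec4f, Tyrobp and C1qa, list median -1.06, range -2.92 to 0.31). So were 2 of 7 lymphocyte genes (Cd4 and Cd79b, list median -0.67, range -1.22 to 0.62). Cd3d at 0.62 and Cd79a at 0.11 lay on the other side of 0 and were not called. With the mouse number as a block, 2 macrophage genes and no lymphocyte gene were called. After centring each array, 1 gene of each list was called higher in kidney, C1qb and Cd3d. None of 3 erythroid, 6 endothelial and 8 fibroblast genes passed in limma, with 1, 0 and 1 at an unadjusted p under 0.05. After centring each array, 1 erythroid gene was called higher in liver and 1 endothelial gene higher in kidney. Of the fibroblast genes, 3 were then called higher in kidney and 1 higher in liver, beside 19.6% and 12.5% of all genes. The part of these cells in the values of the members was not tested, and in whole organs fewer cells of a type and less RNA per cell cannot be told apart.

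Over the module as a whole, members were called about as often as all genes. With values as deposited, 5 of 97 members were called higher in kidney and 7 higher in liver (limma, Benjamini-Hochberg adjusted p under 0.05 over 9033 genes), together 12.4%, against 14.4% of all genes (5.56% higher in kidney and 8.89% higher in liver). Higher in kidney were Cdk9, Cdc42, Ccng1, Poldip2 and Cdc25c, and higher in liver were Cdk2, Cenpe, Cdk4, Cdk10, Pold1, Cdkn3 and Mcm2. This fit, and those below that use both kinds of arrays without a block, take both averages of a mouse as independent. Such averages were correlated, so these p-values for kidney over liver are likely too low. At an unadjusted limma p under 0.05 lay 8 members higher in kidney and 26 higher in liver. After centring each array on its median these were 23 and 21. The share of all genes at that threshold is not given here, so the unadjusted counts below set no group apart. The member median was -0.48 and that of all genes was also -0.48. In 25 of 77 members with all 6 averages the sign was the same in every average (32.5%), against 32.7% of all such genes.

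That common shift came with mouse 2. The median over the tested members was 0.032 in mouse 1, -1.35 in mouse 2 and 0.017 in mouse 3, against 0.0040, -1.30 and -0.023 for all genes. Without mouse 2, 17 of 77 members were called higher in kidney and 8 higher in liver (32.5%, against 35.9% of all genes, 20.3% higher in kidney and 15.7% higher in liver), with a median of 0.042. Centring each array on its median gave 16 and 12 of 97 (28.9%, against 32.0%, 19.6% and 12.5%) with a median of -0.0054, and aligning mouse 2 by signal gave 18 and 19 (38.1%, against 37.5%, 20.5% and 17.1%) with a median of 0.0048. In the other direction, the mouse number as a block left 0 members higher in kidney and 3 higher in liver (3.09%, against 7.63%, 2.84% and 4.78%), with 3 and 15 at an unadjusted p under 0.05. Among members with all 6 averages, the limma adjusted p with the block followed the size of the estimate alone. Mcm3 (-1.15, SE 0.37 without the block) had 0.113, and Cdc42 (1.13, SE 0.21) had 0.124. A call with the block thus marks a large estimate, and takes no account of how closely the mice agreed for that gene. Without mouse 1 only Cdk2 was called among the members, where 6.04% of all genes were called, and without mouse 3 only Cdk2, Cenpe and Cdk10, where 6.12% were, all higher in liver. Of the 12 members called with values as deposited, 10 stayed called after centring, 12 after aligning mouse 2, 9 of 9 tested without mouse 2 and 3 with the block. Cdk2 alone was called in all 14 alternatives.

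**Figure D1:**
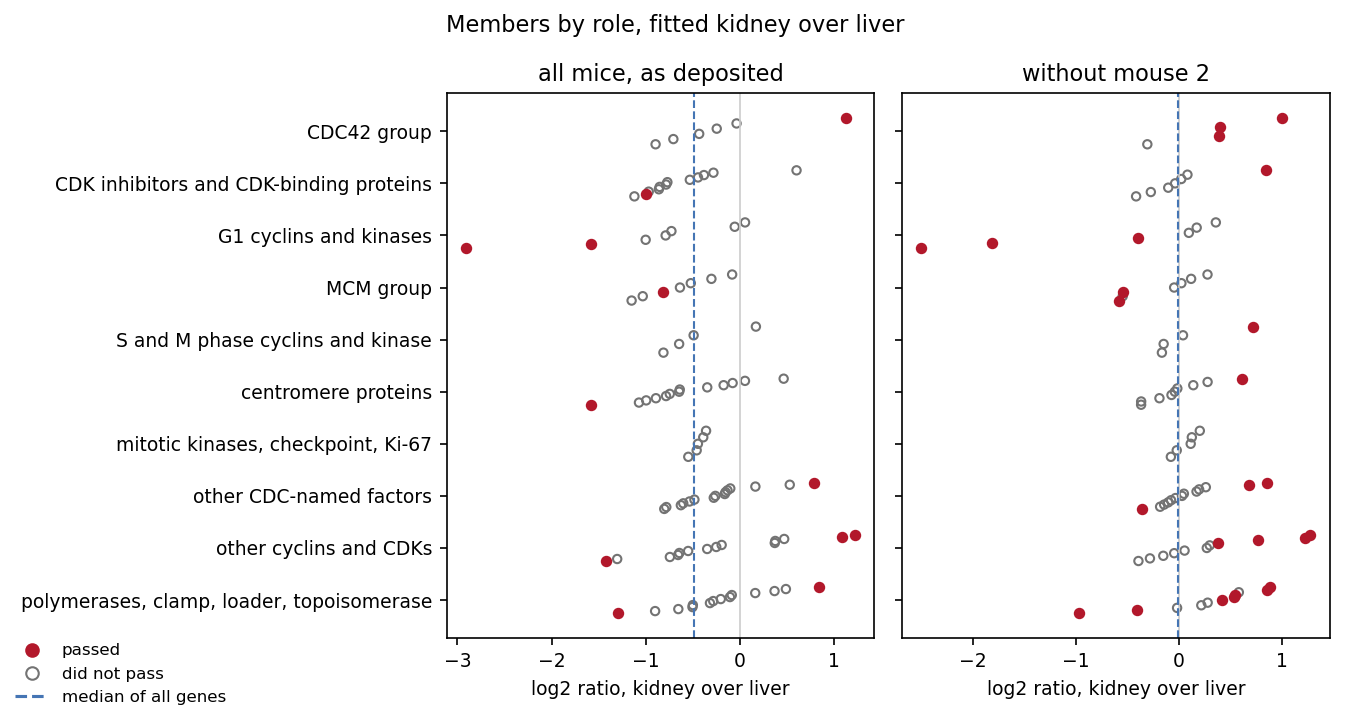
Estimates of the tested members by role, as log2 ratio of kidney over liver, with values of all mice as deposited (left) and without mouse 2 (right). Filled points passed limma at an adjusted p under 0.05, open points did not, and the dashed line is the median of all genes, -0.48 on the left and -0.0026 on the right. With mouse 2 most members lie below 0, and without it they lie around 0, while Cdk2 and Cdk4 are far below 0 in both.

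The largest difference among the tested members was in Cdk2, a kinase of the G1 phase, and Cdk4, another, came next but for Cenpe. Both kinases were lower in kidney, each measured by 1 probe only. Of 7 tested G1 cyclins and kinases, 0 were called higher in kidney and 2 higher in liver, Cdk2 and Cdk4, and the group's median was -0.79. Cdk2 is the kinase that pairs with E- and A-type cyclins at the start of DNA synthesis. It stood at -1.45, -3.95 and -3.50 on the kidney arrays and at -2.33, -3.52 and -2.72 on the liver arrays of mice 1, 2 and 3. All 6 averages were below 0, both kinds of arrays overlapped, and mouse 1 was the least negative on both. The estimate was -2.91 (SE 0.35, n = 3 mice, the same on both kinds, limma adjusted p = 0.000669), which is 7.51 times lower in kidney.

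Cdk4, the kinase of the D-type cyclins, stood at -1.71, -1.28 and -2.28 on the kidney arrays and at -1.45, -0.94 and -1.80 on the liver arrays. Every average was below 0, and mouse 2 was the least negative, against the shift of its arrays. The estimate was -1.58 (SE 0.23, adjusted p = 0.00228), 2.98 times lower in kidney. Cdk4 was also called with the block (adjusted p = 0.00927), but not without mouse 1 (0.0656) or without mouse 3 (0.0832).

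None of their partner cyclins passed with values as deposited. Ccnd1, the cyclin most often tied to growth signals, stood at 0.56, -0.48 and -0.61 on the kidney arrays and at 0.69, -0.62 and 0.80 on the liver arrays. Signs differed between mice and, in mouse 3, between the array kinds, and the estimate of 0.057 (SE 0.28) did not pass (adjusted p = 0.88). Ccnd3 had an estimate of -0.79 (SE 0.28, adjusted p = 0.0935), and was called higher in liver only without mouse 2, at -0.39 (adjusted p = 0.0337). Ccne1 and Cdk6 had estimates of -0.73 and -0.054 and did not pass.

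Among cyclins and kinases with roles outside the main cycle, 2 of 14 tested were called higher in kidney and 1 higher in liver, with a median of -0.30. Cdk9 phosphorylates RNA polymerase II and releases it into elongation. It stood at 1.53, 0.98 and 0.74 on the kidney arrays and at 1.51, 1.26 and 1.33 on the liver arrays, so that all 6 averages were above 0 and both kinds overlapped. Its estimate was 1.22 (SE 0.21, adjusted p = 0.00521), 2.34 times higher in kidney. For Cdk9 the adjusted p was 0.0817 with the block, 0.139 without mouse 1 and 0.088 without mouse 3.

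Ccng1, cyclin G1, is a target of p53 and not a driver of the cycle. It stood at 1.49, 0.71 and 0.65 on the kidney arrays and at 1.34, 0.91 and 1.40 on the liver arrays, all above 0. The estimate was 1.08 (SE 0.22, adjusted p = 0.012), 2.12 times higher in kidney. Its 3 probes differed in size, with the averages of 1 probe between 1.35 and 2.10 and those of another between -0.088 and 1.14. The call was lost with the block (adjusted p = 0.147), without mouse 1 (0.188) and without mouse 3 (0.141).

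Cdk10, a kinase that pairs with cyclin M, stood at -1.31 and -1.90 on the kidney arrays of mice 1 and 2, with no value in mouse 3, and at -1.09, -1.95 and -0.65 on the liver arrays. All 5 averages were below 0 and mouse 2 was the lowest on both kinds. The estimate was -1.42 (SE 0.29, adjusted p = 0.0156), 2.67 times lower in kidney, but -0.85 after centring (adjusted p = 0.00852). With the block, which rested on mice 1 and 2 here, it was -1.56 (adjusted p = 0.062). Cdkl1, a CDK-like kinase, had an estimate of -0.74 (SE 0.32, adjusted p = 0.143). Cdk7, which activates other CDKs and is part of the transcription factor TFIIH, had an estimate of 0.37 (adjusted p = 0.192), with all 6 averages between 0.27 and 0.59, and was called higher in kidney after centring at 0.82.

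**Figure D2:**
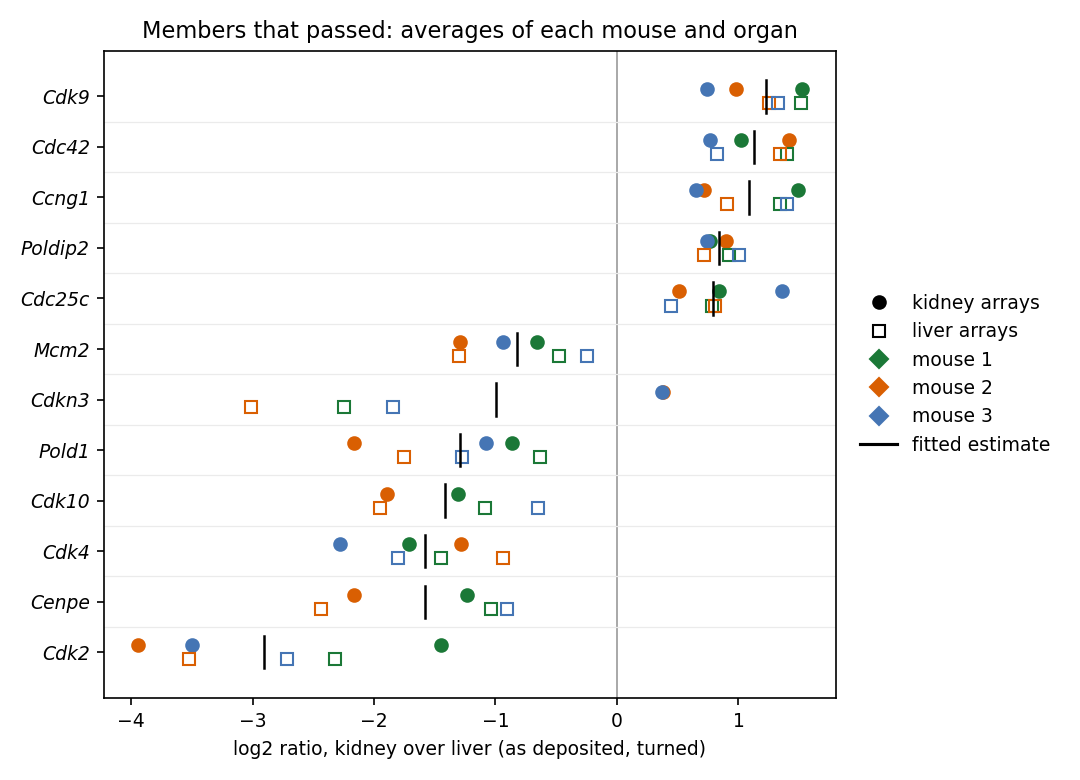
The 12 members that passed with values as deposited, as log2 ratio of kidney over liver (x axis). Filled circles are averages of the kidney arrays and open squares those of the liver arrays, coloured by mouse, and the black line is the fitted estimate. For 11 of the 12 all averages lie on 1 side of 0, and Cdkn3 has 0.38 and 0.37 on the kidney arrays but -3.01 to -1.85 on the liver arrays.

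Of 13 tested proliferation genes (Mki67, Pcna, Top2a, Plk1, Ccnb2, Ccna2, Cdk1 and Mcm2 to Mcm7), 0 were called higher in kidney and 1, Mcm2, higher in liver, with a median of -0.49 beside -0.48 for all genes. This count of 1 of 13 stands beside 14.4% of all genes called, and is too small to set the group apart from it. At an unadjusted p under 0.05 there were 2, and with the block none was called, beside 7.63% of all genes. Mki67, whose product Ki-67 coats mitotic chromosomes, stood at -0.13, -1.55 and 0.19 on the kidney arrays and at 0.16, -1.62 and 0.29 on the liver arrays. Mice 1 and 3 lay near 0 and only mouse 2 far below it. The estimate of -0.44 (SE 0.34, adjusted p = 0.326) was 0.0078 after centring and 0.13 without mouse 2. On the arrays of mice 1 and 3, every value of its probe recurred exactly among the array's other values, a sign of small whole-number intensities and thus of dim spots.

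Cyclins and kinase of S phase and mitosis gave 0 of 4 called (0 at an unadjusted p under 0.05). Cdk1, the mitotic kinase, stood at -0.20, -2.33 and -0.096 on the kidney arrays and at -0.016, -1.95 and -0.27 on the liver arrays, with an estimate of -0.81 (SE 0.38, adjusted p = 0.161). All 6 averages were below 0, but those of mice 1 and 3 by less than the SE. Ccnb2, a B-type cyclin, had an estimate of -0.49 (SE 0.26, adjusted p = 0.194), and Ccna1, the A-type cyclin of the germ line, -0.64 (SE 0.39, adjusted p = 0.238).

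Ccna2, the A-type cyclin of dividing body cells, stood at 0.70, -0.84 and 0.65 on the kidney arrays and at 0.78, -1.03 and 0.76 on the liver arrays. Mice 1 and 3 agreed closely above 0, and mouse 2 was below 0 on both kinds. With all mice the estimate was 0.17 (SE 0.33, adjusted p = 0.689). It was called higher in kidney without mouse 2 at 0.72 (adjusted p = 0.00205), after centring at 0.62 (adjusted p = 0.00586) and with mouse 2 aligned at 0.51 (adjusted p = 0.0192), and was -0.11 without mouse 1 and -0.097 without mouse 3. The call without mouse 2 rested on mice 1 and 3 alone, with both averages of each taken as independent. The 2 probes of Ccna2 differed: in mice 1 and 3 the averages of 1 probe lay between 0.95 and 1.53 and those of the other between 0.012 and 0.35.

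Mitotic kinases, checkpoint genes and Mki67 together gave 0 of 5 called, with 0 at an unadjusted p under 0.05 and 0 also after centring, with mouse 2 aligned and without mouse 2. Plk1, a kinase of mitotic entry and spindle assembly, had an estimate of -0.36 (SE 0.26, adjusted p = 0.305). Bub1b and Bub3, of the spindle checkpoint, had -0.46 and -0.55, and Aurka, a spindle pole kinase, -0.39. On the arrays of mice 1 and 3, 77.8% of values recurred for Plk1, 55.6% for Bub1b, 50.0% for Aurka and on average 30.0% for the probes of Bub3. Several of these genes are thus dim like Mki67, which limits what the missing calls can show.

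**Figure D3:**
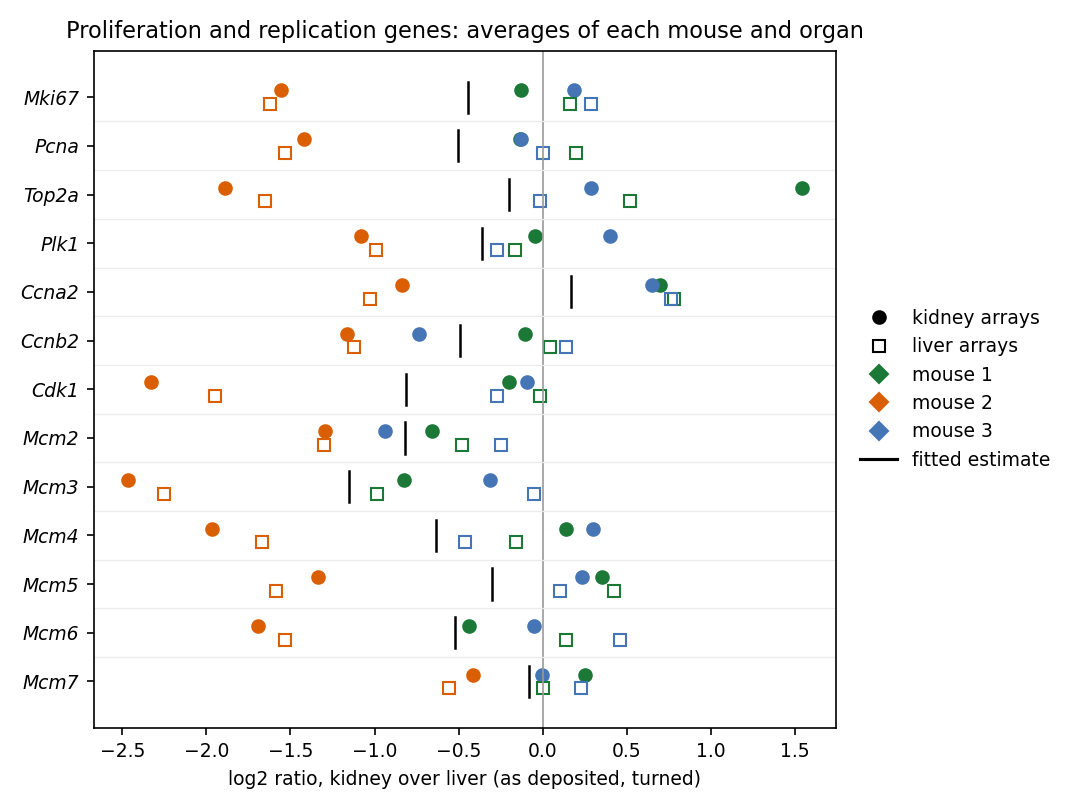
The 13 tested proliferation and replication genes, as log2 ratio of kidney over liver (x axis), with filled circles for averages of the kidney arrays, open squares for those of the liver arrays, colours for mice and black lines for fitted estimates. Mouse 2 lies lowest on both kinds for every gene, and mice 1 and 3 of Mki67 lie between -0.13 and 0.29.

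In the MCM group, which includes the 6 subunits of the replicative helicase, 0 of 7 tested were called higher in kidney and 1 higher in liver, with a median of -0.64 and 3 at an unadjusted p under 0.05. Mcm2, a helicase subunit, stood at -0.66, -1.29 and -0.94 on the kidney arrays and at -0.48, -1.30 and -0.25 on the liver arrays. All 6 averages were below 0 and both kinds overlapped. The estimate was -0.82 (SE 0.23, adjusted p = 0.049), 1.77 times lower in kidney, close to the threshold. It was -0.37 after centring (adjusted p = 0.113), and its adjusted p was 0.281 with the block, 0.197 without mouse 1 and 0.176 without mouse 3.

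Mcm3 had the lowest estimate of the helicase subunits, -1.15 (SE 0.37, adjusted p = 0.0753), with -2.47 and -2.25 in mouse 2 and values between -0.98 and -0.051 in mice 1 and 3. Mcm10, which helps to activate the helicase, had -1.03 (SE 0.31, adjusted p = 0.0648). After centring both were called higher in liver, Mcm3 at -0.70 and Mcm10 at -0.58. Both were dim: 87.5% of the values of Mcm3 and on average 60.0% of those of Mcm10 recurred on arrays of mice 1 and 3. Mcm4, Mcm5, Mcm6 and Mcm7 had estimates of -0.64, -0.30, -0.52 and -0.081 and did not pass. Centring turned Mcm5 and Mcm7 to 0.15 and 0.37, also not called.

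Polymerases, clamp, clamp loader and topoisomerase gave 1 of 14 called higher in kidney and 1 higher in liver, with a median of -0.24. Pold1, the catalytic subunit of polymerase delta, stood at -0.87, -2.16 and -1.08 on the kidney arrays and at -0.64, -1.75 and -1.27 on the liver arrays. All were below 0, mouse 2 lowest on both kinds. The estimate was -1.30 (SE 0.26, adjusted p = 0.0117), 2.46 times lower in kidney, and -0.84 after centring (adjusted p = 0.00283). With the block its adjusted p was 0.0557, without mouse 1 0.062 and without mouse 3 0.104. Pold2, the next subunit of the same enzyme, had -0.90 (SE 0.31, adjusted p = 0.0907) and was called higher in liver after centring at -0.46.

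Poldip2, a partner protein of polymerase delta that is also found in mitochondria, stood at 0.76, 0.90 and 0.74 on the kidney arrays and at 0.93, 0.72 and 1.00 on the liver arrays. These 6 averages were the closest to each other of the 5 members higher in kidney, with an estimate of 0.84 (SE 0.20, adjusted p = 0.0224), 1.79 times higher, and 1.29 after centring. Its 2 probes differed in size, between 1.14 and 1.74 and between 0.21 and 0.65. The adjusted p was 0.275 with the block, 0.201 without mouse 1 and 0.193 without mouse 3.

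Pcna, the sliding clamp, had an estimate of -0.50 (SE 0.31, adjusted p = 0.24), -0.016 without mouse 2. It was dim, with on average 81.7% of the values of its probes recurring on arrays of mice 1 and 3. Top2a, which untangles replicated DNA, stood at 1.54, -1.89 and 0.29 on the kidney arrays and at 0.52, -1.65 and -0.013 on the liver arrays. Mouse 1 was the highest and mouse 2 the lowest on both kinds, and the estimate of -0.20 (SE 0.46, adjusted p = 0.734) was 0.58 without mouse 2 (adjusted p = 0.0767). Of the clamp loader, Rfc2, Rfc3 and Rfc4 had estimates of 0.37, 0.16 and 0.49 and Rfc5 of -0.65, none of which passed. Rfc2 and Rfc4 were called higher in kidney after centring, at 0.82 and 0.94, and without mouse 2, at 0.89 and 0.53.

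Centromere proteins gave 0 of 13 called higher in kidney and 1 higher in liver, with a median of -0.64 and 5 at an unadjusted p under 0.05. Cenpe, a kinesin that moves chromosomes to the spindle equator, stood at -1.24 and -2.17 on the kidney arrays of mice 1 and 2, with no value in mouse 3, and at -1.04, -2.43 and -0.91 on the liver arrays. All 5 averages were below 0. The estimate was -1.58 (SE 0.32, adjusted p = 0.0165), 2.99 times lower in kidney, and -1.01 after centring (adjusted p = 0.00158). With the block it was -1.72 and called (adjusted p = 0.0288), which rested on mice 1 and 2, the ones with both kinds. Cenpv, Cenph and Cenpp had estimates of -0.89, -0.78 and -0.74 and did not pass, and Cenpv was called higher in liver after centring at -0.44. Cenpt, of the inner kinetochore, was the highest of the group at 0.47 (adjusted p = 0.177), with all 6 averages above 0, and was called higher in kidney after centring at 0.92 and without mouse 2 at 0.61.

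Other CDC-named genes gave 1 of 15 called higher in kidney and 0 higher in liver (4 at an unadjusted p under 0.05), with a median of -0.26. Cdc25c, a phosphatase that activates Cdk1, stood at 0.84, 0.51 and 1.36 on the kidney arrays and at 0.79, 0.81 and 0.44 on the liver arrays. All 6 averages were above 0 and the kinds overlapped. Its estimate was 0.79 (SE 0.21, adjusted p = 0.0428), 1.73 times higher in kidney, and 1.24 after centring. The call was not kept with the block (adjusted p = 0.292), without mouse 1 (0.219) or without mouse 3 (0.219). Cdc25a, the related phosphatase acting earlier in the cycle, had -0.78 (SE 0.29, adjusted p = 0.103), and was called higher in liver without mouse 2 at -0.36. Cdc37, a partner of the chaperone Hsp90 for kinases, had -0.63 (adjusted p = 0.198).

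The Cdc42 group gave 1 of 6 called higher in kidney and 0 higher in liver (2 at an unadjusted p under 0.05), with a median of -0.34. Cdc42 is a small GTPase of the actin cytoskeleton and cell polarity. It stood at 1.02, 1.42 and 0.77 on the kidney arrays and at 1.40, 1.34 and 0.82 on the liver arrays, all above 0. The estimate was 1.13 (SE 0.21, adjusted p = 0.00827), 2.19 times higher in kidney, and its 2 probes had averages between 0.75 and 2.04 and between 0.47 and 0.91. Its adjusted p was 0.124 with the block, 0.147 without mouse 1 and 0.0921 without mouse 3. Cdc42ep2, an effector, had -0.89 (SE 0.35, adjusted p = 0.122), and Cdc42bpg, a kinase bound by Cdc42, had -0.24 with all mice and 0.39 without mouse 2, where it was called higher in kidney (adjusted p = 0.0348).

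CDK inhibitors and CDK-binding proteins gave 0 of 12 called higher in kidney and 1 higher in liver, with a median of -0.78 and 7 at an unadjusted p under 0.05. With the block 0 of 12 were called, and after centring 1 in each direction. Cdkn1a (p21), the inhibitor induced by p53, stood at -0.16, -0.91 and -0.30 on the kidney arrays and at -1.57 and -0.96 on the liver arrays of mice 2 and 3, with no value in mouse 1. All 5 were below 0, and the estimate of -0.86 (SE 0.26) did not pass (adjusted p = 0.0694). Cdkn1b (p27), the inhibitor of resting cells, had -0.77 (SE 0.31, adjusted p = 0.128). Cdk2ap2, a Cdk2-associated protein, had -0.78 (SE 0.28, adjusted p = 0.0994). Cdkn2aipnl, which is related to a partner of the Cdkn2a product, had 0.60 (SE 0.24, adjusted p = 0.125), and was called higher in kidney after centring at 1.06 and without mouse 2 at 0.85.

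Cdkn3, a phosphatase that removes the activating phosphate of Cdk2, went apart between the kinds of arrays. It stood at 0.38 and 0.37 on the kidney arrays of mice 2 and 3, with no value in mouse 1, and at -2.25, -3.01 and -1.85 on the liver arrays. Single kidneys against the liver pool were thus above 0 and single livers against the kidney pool far below it, with no overlap. The estimate over both was -0.996 (SE 0.27, adjusted p = 0.049), 1.99 times lower in kidney, and describes neither kind. After centring it was -0.43 (adjusted p = 0.173), with the block its adjusted p was 0.275 and without mouse 1 it was 0.182.

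The difference between the kinds of arrays was tested for every gene as a term of the same fit. For Cdkn3 it was 2.75 (SE 0.54, unadjusted p = 0.0012 from limma, adjusted p = 1.0). None of the 97 members was called for it, with 1 at an unadjusted p under 0.05, and none of all genes was called (0.0%), with 16 (0.177%) at an unadjusted p under 0.05. This fit leaves the difference between mice in the error of a difference that lies within mice, so its errors for this term are likely too large. With the mouse number as a block on the kidney over liver scale, chosen after seeing the data, the difference of Cdkn3 was 2.81 (SE 0.30, limma adjusted p = 0.0416) and rested on mice 2 and 3, the ones with both kinds. Cdkn3 was then the 1 member called (1.03% of 97, against 0.1% of all 8970 genes tested). At an unadjusted p under 0.05 there were 7 members (7.22%), against 7.92% of all genes. Without the block but with a mean-dependent prior variance 0 members and 1 gene were called. The median of this difference was -0.071 over the members and -0.04 over all genes.

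How far mouse 2 lay from the others varied with signal. Of the tested members, 9 were bright (at most 0.1 of values recurring), 48 in between and 40 dim (over 0.5 recurring), and 5, 7 and 0 of them were called. The share is read from the ratios themselves, so extreme ratios may count as bright at any intensity. The difference of mouse 2 from the mean of mice 1 and 3 had a median of -0.13 in bright members, -1.20 in the middle and -1.46 in dim ones, and was negative in 94 of 97. This grading was not particular to the members. Over all probes, the median shift on the arrays of mouse 2 lay between -0.39 and -0.080 at a recurring share up to 0.1. At a share over 0.9 it lay between -1.62 and -1.35. Cdk4 and Cdc42 were the called members with a positive difference, at 0.70 and 0.38. In 79 of 97 members every average of mice 1 and 3 lay within 1 of 0 on the log2 scale. The matching shares of all genes, by signal class or in total, are not given here. The member counts in this paragraph therefore do not set the members apart from all genes. The median SD over members was 0.209 between hybridisations of the same RNA and 0.775 between mice, and 0.292 between mice after centring.

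**Figure D4:**
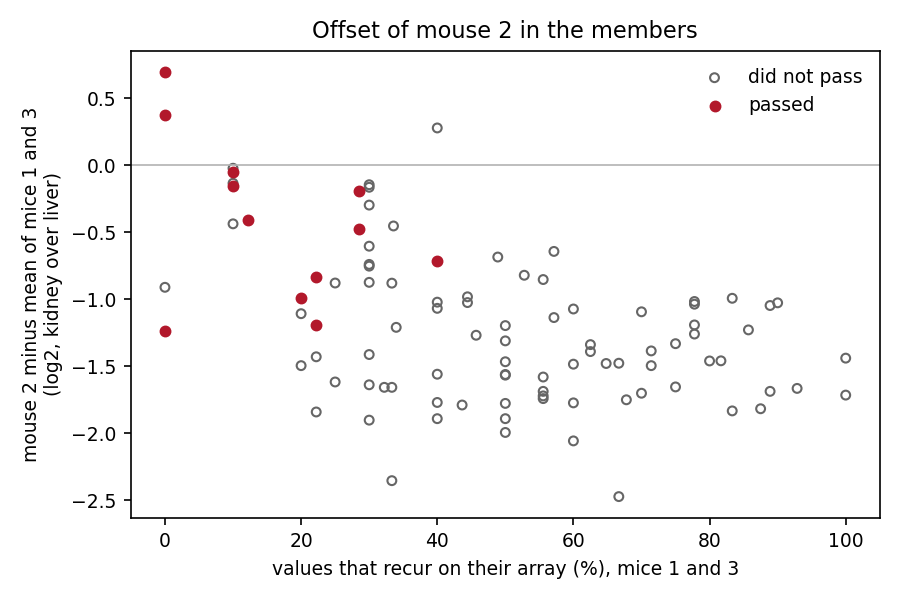
Difference of mouse 2 from the mean of mice 1 and 3 (log2 of kidney over liver, y axis) against the percent of values that recur exactly on their array in mice 1 and 3 (x axis), 1 point per tested member. Filled points passed, and open points did not. The difference is negative in 94 of 97 members, with a median of -0.13 at low recurrence and -1.46 at high recurrence, and no filled point lies above 50%.

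Other genes of the cycle, taken from 6 lists of genes outside the name rule apart from Ccng1, gave a similar picture. Of 104 tested genes in these lists other than the members, 2 were called higher in kidney and 8 higher in liver, with a median of -0.56. Of all genes 5.56% were called higher in kidney and 8.89% higher in liver. With the block the lists gave 0 and 6, beside 2.84% and 4.78% of all genes. These counts do not set the lists apart from all genes. E2F, RB and DREAM genes gave 0 of 12 called (2 at an unadjusted p under 0.05), and genes of nucleotide supply 0 of 13 (2 at an unadjusted p under 0.05). After centring these 2 lists gave 2 and 0 higher in kidney and 1 and 1 higher in liver. Origin licensing and fork genes gave 0 higher in kidney and 2 of 18 higher in liver, Tipin of the fork protection complex at -1.86 (SE 0.22, adjusted p = 0.000628) and Rpa1, which binds single-stranded DNA, at -1.38 (SE 0.21, adjusted p = 0.00252). Both kept the call with the block.

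Spindle, kinetochore and condensin genes gave 1 of 30 higher in kidney, Zwilch of the kinetochore at 0.79 (adjusted p = 0.0325), and 4 higher in liver, Espl1, Nek2, Racgap1 and Mad1l1. Espl1, the separase that splits sister chromatids, stood at -2.30, -2.31 and -2.11 on the kidney arrays and at -2.47, -2.15 and -2.42 on the liver arrays. Its 6 averages lay within a narrow range far below 0, mouse 2 included, and the estimate was -2.29 (SE 0.20, adjusted p = 8.78e-05), 4.90 times lower in kidney. Nek2, a centrosome kinase, and Racgap1, of cytokinesis, had -1.59 and -1.35.

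Ubiquitin ligase genes gave 1 of 19 in each direction, both CDK-binding Cks proteins: Cks2 at 1.16 (SE 0.22, adjusted p = 0.00958) and Cks1b at -1.32 (SE 0.28, adjusted p = 0.0137). Cks2 stood at 1.02, 1.52 and 0.66 on the kidney arrays and at 1.57, 1.37 and 0.82 on the liver arrays, against -0.85, -2.10 and -1.22 and then -0.80, -2.14 and -0.85 for Cks1b. The averages of Cks2 were all above 0 and those of Cks1b all below it. With the block Cks1b was called (adjusted p = 0.0475) and Cks2 was not (0.109). Checkpoint and p53 genes gave Ccng1 of 13 higher in kidney and the antiproliferative Btg1 higher in liver at -1.05 (SE 0.27, adjusted p = 0.035), which the block did not keep (0.164).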

How the data were processed

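Per the labels' protocols, slides were read on a GenePix 4000A scanner, GenePix Pro 3.0 gave mean intensities less background, scaled until the median ratio was 1. The values deposited by the authors are log2 ratios of both channels. The base is not stated in the sources used here and was read from the values: 141 of 144 spacings from the most frequent values fitted log2 of ratios of whole numbers up to 10 within 1e-04, while 0 fitted a natural log and 16 fitted log10. Dyes per sample are not given in the sources used here, and raw intensities were not used.

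Direction was set from organ markers: pool over single sample, opposite to the order of the titles. Values were turned to kidney over liver. Of 20419 probes, 11723 had 1 gene symbol, 806 several and 7890 none. Symbols were updated through RefSeq (11590 by gene ID, 45 by symbol and 86 by synonym, while 2 kept the platform's name), and probes of a symbol were averaged. Repeat hybridisations were averaged per mouse and organ. limma 3.58.1 in R 4.3.3 took these 6 averages, with an intercept for kidney over liver and array kind as a second term, for genes measured in 2 or more mice of each organ. Two-sided p-values were adjusted over all genes tested (Benjamini-Hochberg) and called at 0.05. Figures were drawn with matplotlib 3.10.9. The fit was also run on simulated data. For kidney over liver these drew both averages of a mouse independently, so they cannot show whether p-values hold where such averages are correlated.

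Members, lists and the rule for named genes (every called member, proliferation markers, and the 3 largest estimates per role group among members with a value in every average and, among called genes, per other list) were chosen with earlier results of these data known. A few further genes (such as Cdk7, Cenpt, Rfc2 to Rfc5, Aurka, Ccne1 and Cdk6) were named after their values were seen.

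Per the labels, a mouse number stands for 1 animal on kidney and liver arrays alike. Over 14688 probes with ratios taken as single sample over pool, deviations of mice 1, 2 and 3 on kidney arrays correlated with those on liver arrays at -0.591, -0.795 and -0.585, so they are positively correlated as kidney over liver. The fit without a block takes both averages of a mouse as independent, so its errors and p-values are likely too low for kidney over liver and too high for array kind. Mouse as a block, centring, scaling, aligning mouse 2 by signal, leaving out each mouse and others were alternatives, and array kind with mouse as a block was added after seeing the data. For kidney over liver with the block, p-values of members with all averages followed the size of the estimate alone, not the spread of each gene.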

Additional observations from a re-analysis of the deposited data

Results flagged for a closer look

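Over the arrays of the named members, 2 of 86 groups of 4 to 9 arrays (2.33%) held an array far from the others, where chance gives about 5% for independent arrays. These arrays repeat 3 mice, and those of mouse 2 lay apart, so the shares cannot be compared. In both flagged groups the array was 2d, a liver array of mouse 2. Ccng1 was at 0.451 there, with the nearest of the other 8 liver arrays at 1.06, and Mcm2 was at -2.02, with the nearest at -0.963. The kidney over liver ratio of Cdkn3 differed between the kidney arrays and the liver arrays by 2.75, with an unadjusted p of 0.0012 and an adjusted p of 1.0 in limma, and with the mouse number as a block by 2.81, with an adjusted p of 0.0416.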

How the results depend on the processing

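Against 5 members called higher in kidney and 7 higher in liver as deposited, centring gave 16 and 12, aligning mouse 2 gave 18 and 19, scaling gave 16 and 13 and a replicate block by mouse gave 0 and 3. Leaving out a mouse gave 0 to 17 and 1 to 8, kidney arrays only 0 and 2, and liver arrays only 1 and 4. Genes with a value in every average gave 5 and 4. Of all genes, scaling called 20.8% higher in kidney and 12.9% higher in liver. For kidney arrays only these shares were 1.86% and 3.14%, and for liver arrays only 3.17% and 5.79%. For genes with a value in every average they were 7.01% and 10.1%. The same shares stand beside the counts of the other lists below. Between the kinds of arrays, 0 members were called, and 1 with a replicate block by mouse on kidney over liver. The other cell cycle lists, 2 and 8 as deposited, gave 15 and 12 after centring, 15 and 16 aligned, 15 and 13 scaled and 0 and 6 with the block. For those lists leaving out a mouse gave 0 to 14 and 2 to 10, kidney arrays only 0 and 2, and liver arrays only 0 and 6. The member median minus that of all genes, 0.0 as deposited, moved past the SD of 0.044 between mice with mouse 2 aligned (0.045), without mouse 2 (0.045), with liver arrays only (0.047) and with complete genes (0.053), and lay between -0.0040 and 0.045 when a mouse was left out.

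Direction turned for some members named by the rule, of which only Cdc42bpg without mouse 2 was called afterwards and only Cdkn3 had been called before. After centring the values were Mki67 0.0078, Plk1 0.094, Mcm5 0.15, Cdc42bpg 0.21, Top2a 0.25 and Mcm7 0.37. With scaling they were Mki67 0.036, Bub1b 0.038, Plk1 0.072, Mcm5 0.19, Cdc42bpg 0.27, Mcm7 0.32 and Top2a 0.35. With mouse 2 aligned they were Bub1b 0.012, Mki67 0.052, Cdc42bpg 0.079, Plk1 0.14, Mcm5 0.17, Top2a 0.18 and Mcm7 0.24. With a mouse left out, values of those that turned ranged from -0.88 to 0.026 for Mcm6, -1.09 to 0.042 for Ccna1, -0.78 to 0.12 for Bub1b, -0.19 to 0.12 for Mcm7, -0.79 to 0.13 for Mki67, -0.65 to 0.28 for Mcm5, -0.59 to 0.39 for Cdc42bpg and -0.82 to 0.58 for Top2a, positive without mouse 2 in each. They ranged from -0.11 to 0.72 for Ccna2, negative without mouse 1 and without mouse 3 (-0.097), and from -0.23 to 0.36 for Ccnd1, negative without mouse 1. Kidney arrays only gave Ccnd1 -0.18 and Cdkn3 0.38. Of the genes named after their values were seen, Aurka turned to 0.064 after centring and 0.20 without mouse 2. Cdk6 turned to 0.40 and 0.17 in these settings, and Ccne1 to 0.099 without mouse 2, none of them called. Centring, scaling, aligning and leaving out mouse 2 remove its offset by construction, and for the other turns the cause was not tested. No named member turned with the block, which took the call from 9 of 12.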
